A study of Mus musculus with 8 samples.

Results

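The Hox genes of the A, B, C and D clusters were followed through bulk RNA-seq libraries of mouse cerebellum. The members were the protein-coding genes named *Hoxa*, *Hoxb*, *Hoxc* or *Hoxd* plus a number, and all 39 of them were found among the 56691 genes of the count table (21630 of them protein-coding). The libraries came from 4 *Atm*-WT mice (2M, 7M, 13M and 32M, labelled ATM +/+) and 4 *Atm*-KO mice (1M, 7F, 11M and 12M, labelled ATM -/-), and each was the cerebellum of 1 mouse. All mice came from crosses of heterozygotes of the strain B6;129S4-Atmtm1Bal/J, whose disrupted *Atm* allele is carried in the germline, and were 6 months old. Their tissue was frozen after perfusion with saline, the *Atm*-WT mice were littermates of the *Atm*-KO mice, and nothing in the labels gave a further treatment. *Atm* encodes the kinase that is lost in ataxia-telangiectasia, and the series asked how its loss alters cerebellar transcripts. For the Hox genes the libraries answer how much position-marking RNA the dissected tissue held, from which clusters and paralogue groups it came, and whether it differed between mice or genotypes.

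Hox genes encode homeodomain transcription factors that give cells of the embryo their address along the head to tail axis. Genes at the 3′ end of a cluster (the low paralogue numbers) are switched on early and reach far forward into the hindbrain, while those at the 5′ end (the high numbers) are restricted to the tail, limbs and urogenital tract. Rhombomere 1, the segment that builds the cerebellum, lies ahead of the Hox domains, whereas the medulla and much of the pons keep Hox transcripts into adult life.

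The clusters lie on chromosome 6 (*Hoxa*, chr6:52132570-52237822, 11 members), chromosome 11 (*Hoxb*, chr11:96085106-96259082, 10 members), chromosome 15 (*Hoxc*, chr15:102829538-102945278, 9 members) and chromosome 2 (*Hoxd*, chr2:74498654-74595486, 9 members) of GRCm39. The promoters of 3 members, each the 250 bases before the start of the canonical transcript and read in the direction of the gene from GRCm39, are shown because they belong to the member with a count in every library and to a pair of members of paralogue group 13 of which 1 had counts and 1 had none. Capitals mark CG dinucleotides (CpG), where vertebrate DNA is methylated and which crowd in the promoters of developmental regulators. *Hoxd1* lies on the plus strand (window chr2:74593074-74593323), *Hoxd13* on the plus strand (chr2:74498404-74498653) and *Hoxa13* on the minus strand (chr6:52237823-52238072).
Hoxd1: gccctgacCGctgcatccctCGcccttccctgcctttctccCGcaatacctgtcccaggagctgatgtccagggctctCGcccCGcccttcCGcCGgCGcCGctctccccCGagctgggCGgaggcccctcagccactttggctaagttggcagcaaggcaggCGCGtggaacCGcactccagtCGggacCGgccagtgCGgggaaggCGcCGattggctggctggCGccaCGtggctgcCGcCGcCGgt
Hoxd13: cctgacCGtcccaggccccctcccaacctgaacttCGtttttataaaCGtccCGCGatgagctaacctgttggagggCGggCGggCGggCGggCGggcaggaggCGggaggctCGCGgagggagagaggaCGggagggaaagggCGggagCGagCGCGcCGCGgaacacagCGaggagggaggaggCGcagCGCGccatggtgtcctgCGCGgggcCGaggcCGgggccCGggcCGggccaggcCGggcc
Hoxa13: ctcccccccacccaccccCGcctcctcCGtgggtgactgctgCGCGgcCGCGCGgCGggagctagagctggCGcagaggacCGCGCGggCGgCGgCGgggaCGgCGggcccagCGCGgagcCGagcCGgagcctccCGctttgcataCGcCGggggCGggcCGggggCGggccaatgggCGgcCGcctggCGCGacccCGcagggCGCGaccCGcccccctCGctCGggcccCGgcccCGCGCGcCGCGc

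These windows held 24 CpG in *Hoxd1*, 31 in *Hoxd13* and 43 in *Hoxa13*, the highest number among the 39 members. At least 10 CpG were found in 25 of the 39 Hox promoters (64.1%), against 43.4% of the windows of all 21630 protein-coding genes. The median was 12 CpG over the Hox genes (range 1 to 43) and 8 over all protein-coding genes. It was 12 over the 22 members with a count and 13 over the 17 members without one, so the number of CpG in this window ran alike in members with and without counts.

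The clusters also carry microRNAs, some of which are known to repress Hox transcripts. Their mature sequences (RefSeq, GRCm38.p6) are shown because they form families by seed (bases 2 to 8, in capitals) that sit at the same relative place in several clusters. miR-10a comes from the *Hoxb* cluster, miR-10b from *Hoxd*, miR-196a from *Hoxb* and *Hoxc*, and miR-196b from *Hoxa*.
miR-10a-5p: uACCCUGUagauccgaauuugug
miR-10b-5p: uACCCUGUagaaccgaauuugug
miR-196a-5p: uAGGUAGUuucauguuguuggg
miR-196b-5p: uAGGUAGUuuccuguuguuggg

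The miR-10 pair shared the seed ACCCUGU and the miR-196 pair the seed AGGUAGU. Their hairpin genes, and the other miRNA genes annotated inside the clusters (7 in all), stood at 0 counts in every library. Standard RNA-seq libraries do not capture mature miRNAs, so these zeros say nothing about their levels.

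The targeted gene was read first as a check of the labels. *Atm* was at 67.6, 80.0, 79.3 and 59.0 CPM (counts-per-million after TMM scaling of the libraries) in *Atm*-WT and 51.1, 44.2, 41.1 and 44.9 in *Atm*-KO mice, without overlap. The log2 fold change was -0.66, and the edgeR adjusted p of 0.0775 missed the threshold of 0.05. *Atm* lies on none of the chromosomes that carry a Hox cluster.

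Hox transcripts were close to absent from the cerebellar libraries, and in bulk tissue few cells with Hox RNA and little of it per cell cannot be told apart. A Hox count was read in 79 of the 312 values (39 genes in 8 libraries), and 233 values were 0. The highest value of any member was 16 counts, in libraries of 65967130 to 88030300 counts. The members held 374 counts in all, which is 0.597 CPM by library size over the 8 libraries. By comparison, 6073 of the 21630 protein-coding genes (28.1%) never went above 16 counts either. Of the 39 members, 17 (43.6%) stood at 0 in every library, against 16.3% of all protein-coding genes. A count of 0 allows up to 3 counts, or 0.0341 to 0.0455 CPM depending on the library, and this floor covers counting error only.

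The unit of these counts bears on every value near the floor. Of the 79 values above 0, 77 were even and 30 were exactly 2, while 67.3 to 73.3% of all values from 1 to 50 were even in each library. If both reads of a pair were counted, a value of 2 is 1 fragment and the floor becomes 6 counts, or 0.0682 to 0.0910 CPM. Above 3 counts stood 47 of the 312 values, and above 6 counts 14, which came from 9 members.

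**Figure D1:**
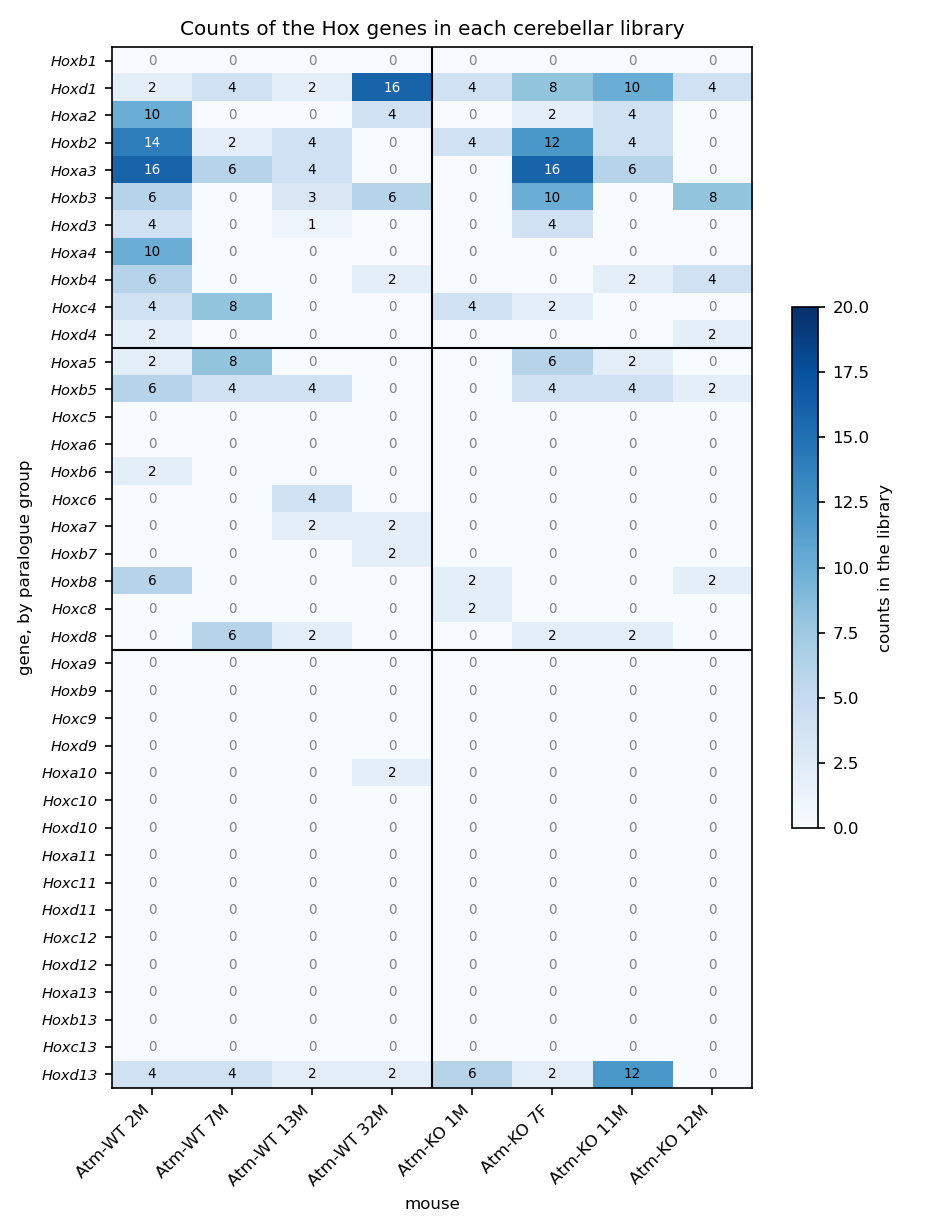
Counts of the Hox genes reported singly (rows, ordered by paralogue group, with lines after groups 4 and 8) in the 8 libraries (columns, *Atm*-WT left and *Atm*-KO right of the line); each cell gives the count and its shade. The values above 0 lie almost all above the second line, and *Hoxd13* is the only row below it with counts in more than 1 library.

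The few counts followed the order of the clusters. Paralogue groups 1 to 4, whose forward limits lie in the hindbrain, had counts in 11 of 12 members and held 262 of the 374 counts (70.1%). Groups 5 to 8, known from the caudal medulla and spinal cord, had counts in 9 of 11 members and held 78 (20.9%). Groups 9 to 13, which pattern the lumbar and sacral trunk and the limbs, had counts in 2 of 16 members and held 34 (9.09%). These 34 were 32 counts of *Hoxd13* and 2 of *Hoxa10*. Groups 1 to 8 thus held 90.9% of the counts, with the lowest share in 1M and 11M (75.0% each), while in 12M every Hox count came from them.

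**Figure D2:**
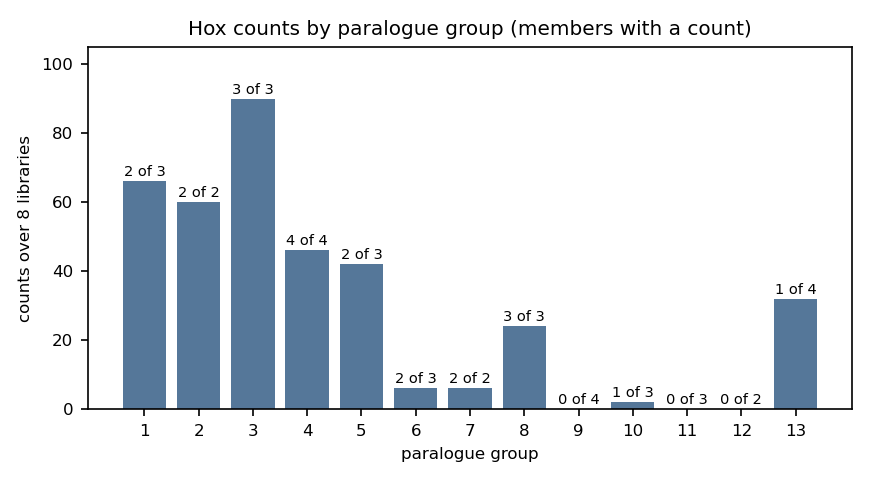
Summed counts of the Hox genes over the 8 libraries (vertical axis) by paralogue group (horizontal axis); the labels give the members with a count of the members in the group. Groups 1 to 5 held 42 to 90 counts each, groups 6, 7 and 9 to 12 held 0 to 6, group 8 held 24 and group 13 held 32.

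The clusters differed in the same view. *Hoxa* had counts in 7 of 11 members (118 counts, 31.6%), *Hoxb* in 7 of 10 (125 counts, 33.4%) and *Hoxd* in 5 of 9 (107 counts, 28.6%). *Hoxc*, the cluster with no gene in groups 1 to 3, had counts in 3 of 9 members and held 24 (6.42%). Within groups 1 to 4 the member without a count was *Hoxb1*, the gene that marks rhombomere 4 in the embryo.

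In order of level per length, the Hox genes lay far below *En2* and the markers of cerebellar neurons, and in the range of *Gbx2* and *Fgf8*. The highest mean over the 8 mice was 0.0423 CPM per kb of exon for *Hoxd1*, followed by *Hoxd13* at 0.0205, *Hoxb2* at 0.0184, *Hoxa5* at 0.0158 and *Hoxb5* at 0.0140 CPM per kb. The values of single mice overlapped between each of these genes and the next, so that the neighbours in this order were not separated beyond their spread. *En2*, the engrailed gene that specifies the midbrain and hindbrain border and the cerebellum, stood at 24.4 CPM per kb. *Gabra6*, the receptor subunit of cerebellar granule cells, stood at 240.4 CPM per kb. *Gbx2* and *Fgf8*, which set the same border in the embryo, were at 0.0129 and 0.0119 CPM per kb, below *Hoxd1* and *Hoxd13*. The labelled tissue was checked with cerebellar markers: all 16 of the list (*Pcp2*, *Calb1*, *Pvalb*, *Gabra6* and others) passed the filter on low counts, and they summed to 11255 to 13535 CPM in single mice.

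Exon overlap limits these levels. Of the 39 members, 19 share exonic bases with another gene, most of them antisense or cluster-spanning non-coding genes, and whether reads were counted by strand is not given in the sources used here. Without strand, reads from a gene and its antisense partner cannot be told apart. The order moved when the same counts were divided by the exon length outside other genes: *Hoxb2* then stood at 0.0262 and *Hoxb3* at 0.0216 CPM per kb in place of 0.0105. *Hoxd1*, *Hoxd13* and *Hoxa5* share no exonic base with another gene and kept their values.

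Of the members, 7 had a count in at least 5 of the 8 libraries, and this choice was made after their values were seen. Of these, *Hoxa3*, *Hoxb2*, *Hoxb3*, *Hoxb5*, *Hoxd1* and *Hoxd13* are given by mouse, in the order 2M, 7M, 13M and 32M for *Atm*-WT and 1M, 7F, 11M and 12M for *Atm*-KO. Differences are *Atm*-KO minus *Atm*-WT means of log2 CPM with a prior count of 2, tested by two-sided exact permutation over the mice, where 4 mice against 4 allow no p under 0.0286. After Benjamini-Hochberg adjustment over the 7 genes every exact permutation p was 1.0.

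*Hoxd1*, a group 1 gene known from the wiring of pain-sensing neurons, was the one member with a count in all libraries. Its counts were 2, 4, 2 and 16 in *Atm*-WT and 4, 8, 10 and 4 in *Atm*-KO mice. Mouse 32M was the highest, followed by 11M and 7F, and the genotypes overlapped. The difference was 0.39 on the log2 scale (exact permutation p = 0.514), and 0.85 without 32M or 0.15 without 13M, with levels of 0.0725 ± 0.0773 CPM in *Atm*-WT and 0.0850 ± 0.0375 in *Atm*-KO (SD, n = 4 each).

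Among group 2 genes, which set the identity of rhombomeres 2 to 4, *Hoxb2* had 14, 2, 4 and 0 counts in *Atm*-WT and 4, 12, 4 and 0 in *Atm*-KO mice. The high mice were 2M and 7F, 1 of each genotype, and the difference was 0.095 (exact permutation p = 0.857). The mean CPM of *Hoxb2* lay slightly the other way, at 0.0645 in *Atm*-WT against 0.0638 in *Atm*-KO mice, so these values gave no direction. *Hoxa2*, the Hox gene with the most anterior limit of all, had 10, 0, 0 and 4 counts in *Atm*-WT and 0, 2, 4 and 0 in *Atm*-KO mice. Mouse 2M was again the highest.

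Group 3 genes pattern the pharyngeal arches and the hindbrain behind rhombomere 4, and *Hoxa3* shared with *Hoxd1* the highest single value of the family. Its counts were 16, 6, 4 and 0 in *Atm*-WT and 0, 16, 6 and 0 in *Atm*-KO mice. Mice 2M and 7F were the highest once more, mouse 32M, the highest for *Hoxd1*, had none, and the difference was -0.39 (exact permutation p = 0.657). *Hoxb3* had 6, 0, 3 and 6 counts in *Atm*-WT and 0, 10, 0 and 8 in *Atm*-KO mice, with a difference of -0.023 (exact permutation p = 1.0). Its mean CPM lay the other way, at 0.0460 in *Atm*-WT against 0.0618 in *Atm*-KO mice, as did the edgeR log2 fold change without the filter (0.40), so no direction was given by these values. *Hoxd3* had 4, 0, 1 and 0 counts in *Atm*-WT and 0, 4, 0 and 0 in *Atm*-KO mice, so that 2M and 7F held 8 of its 9 counts.

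All 4 members of group 4, whose forward limits lie in the caudal hindbrain, had counts. *Hoxc4* had 4, 8, 0 and 0 in *Atm*-WT and 4, 2, 0 and 0 in *Atm*-KO mice, *Hoxb4* had 6, 0, 0 and 2 in *Atm*-WT and 0, 0, 2 and 4 in *Atm*-KO, and *Hoxd4* had 2 counts in each of 2M and 12M. *Hoxa4* had 10 counts in mouse 2M and none elsewhere.

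Group 5 genes act in the respiratory motor column and the lung. *Hoxb5* had 6, 4, 4 and 0 counts in *Atm*-WT and 0, 4, 4 and 2 in *Atm*-KO mice, a difference of -0.22 (exact permutation p = 0.657). *Hoxa5* had 2, 8, 0 and 0 in *Atm*-WT and 0, 6, 2 and 0 in *Atm*-KO mice. In groups 6 to 8, counts came from at most 4 libraries a gene: *Hoxd8* had 6, 2, 2 and 2 counts in mice 7M, 13M, 7F and 11M, *Hoxb8* had 6, 2 and 2 in 2M, 1M and 12M, and *Hoxc6*, *Hoxa7*, *Hoxb6*, *Hoxb7* and *Hoxc8* had 2 to 4 counts in all.

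*Hoxd13*, the digit gene at the 5′ end of the *Hoxd* cluster, stood apart from its group. Its counts were 4, 4, 2 and 2 in *Atm*-WT and 6, 2, 12 and 0 in *Atm*-KO mice, while *Hoxa13*, *Hoxb13* and *Hoxc13* were at 0 in every library. Mouse 11M was the highest and 12M had none. The difference was 0.16 (exact permutation p = 0.743).

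The neighbour of *Hoxd13* on the 5′ side is *Evx2*, a homeobox gene whose start lies 8.75 kb away and which shares enhancers with *Hoxd13* in the limb. *Evx2* had 71, 74, 50 and 150 counts in *Atm*-WT and 106, 122, 178 and 4 in *Atm*-KO mice. *Evx2* was thus well above the floor in 7 mice and near it in 12M, and 11M and 12M were its highest and lowest mice, as for *Hoxd13*, although 32M, the second highest for *Evx2*, had 2 counts of *Hoxd13*. *Evx1*, its counterpart 52.66 kb beyond *Hoxa13*, had 26, 14, 6 and 42 counts in *Atm*-WT and 28, 64, 98 and 0 in *Atm*-KO mice. *Hoxa13* and *Hoxa11*, which lie between *Evx1* and *Hoxa10*, were at 0. *Evx2* did not differ between genotypes past the threshold (log2 fold change 0.30, edgeR adjusted p = 0.834), nor did *Evx1* (1.16, adjusted p = 0.477).

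Non-coding genes inside the clusters were read as well. Of 45 such genes, 9 had a count, among them 5 of 19 lncRNA genes. The 45 include 7 miRNA and 16 misc_RNA genes, and the share with a count over all non-coding genes was not computed. They are therefore not compared with the members. *Haglr*, which starts beside *Hoxd1* on the opposite strand, had 14, 0, 14 and 9 counts in *Atm*-WT and 4, 12, 17 and 10 in *Atm*-KO mice. *Hoxaas2*, antisense to *Hoxa3*, had 8, 8, 0 and 4 in *Atm*-WT and 4, 8, 8 and 7 in *Atm*-KO mice. *Hoxb3os*, antisense to *Hoxb2* and *Hoxb3*, had 13, 4, 0 and 2 in *Atm*-WT and 0, 4, 2 and 0 in *Atm*-KO mice, with 2M the highest as for *Hoxb2*. *Hotairm1* had 10 counts in all, and *Hotair* and *Hottip*, the lncRNAs of the 5′ ends of *Hoxc* and *Hoxa*, were at 0.

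Summed over the 39 members, the Hox counts spanned a similar range in both genotypes. The sums were 96, 44, 28 and 40 counts in *Atm*-WT and 24, 72, 48 and 22 in *Atm*-KO mice. On the TMM scale they were 1.27, 0.591, 0.326 and 0.466 CPM in *Atm*-WT and 0.294, 0.928, 0.619 and 0.326 in *Atm*-KO mice. Mouse 2M was the highest and 7F the second, and the genotypes overlapped. By library size the exact 95% binomial interval was 1.01 to 1.52 CPM in 2M and 0.211 to 0.460 in 13M, the highest and lowest *Atm*-WT mice. In *Atm*-KO mice it was 0.719 to 1.16 in 7F and 0.196 to 0.455 in 1M, again the highest and lowest. These intervals cover counting error only, and the mice were picked by their sums, so they are no test between mice. With 2 counts to a fragment the intervals widened to 0.920 to 1.65 in 2M, 0.174 to 0.534 in 13M, 0.644 to 1.27 in 7F and 0.158 to 0.535 in 1M.

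**Figure D3:**
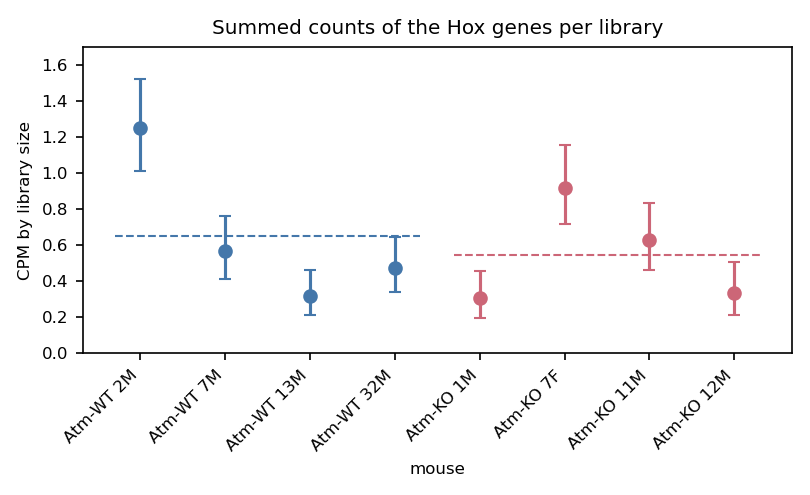
Summed level of the 39 Hox genes in CPM by library size (vertical axis) for each mouse; points are single mice, bars the exact 95% binomial intervals for counting error, and dashed lines the means of the 4 *Atm*-WT (blue) and 4 *Atm*-KO (red) mice. The highest mouse is 2M at 1.25 CPM and the lowest is 1M at 0.306, and both genotypes hold high and low mice.

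The mean sum was 0.662 ± 0.417 CPM in *Atm*-WT, against 0.542 ± 0.296 CPM in *Atm*-KO mice (SD, n = 4 each), a difference of -0.121 CPM that was smaller than either SD. It rested on mouse 2M: without this mouse the difference was 0.0804 CPM, the other way. Members with a count numbered 16, 9, 10 and 9 in *Atm*-WT and 7, 12, 10 and 6 in *Atm*-KO mice. Over the 4 mice of a genotype, 21 members had a count in *Atm*-WT and 16 in *Atm*-KO. Counts in both genotypes were found for 15 members, in *Atm*-WT mice alone for 6 (*Hoxa4*, *Hoxa7*, *Hoxa10*, *Hoxb6*, *Hoxb7* and *Hoxc6*) and in *Atm*-KO mice alone for 1 (*Hoxc8*), and 6 of these 7 had their 2 to 10 counts in a single library, all but *Hoxa7*.

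No member passed the filter on low counts (filterByExpr of edgeR), so the genotype test as designed held no Hox gene and 0 were called. Called means that the edgeR adjusted p was under 0.05 with a log2 fold change beyond 0.5 in either direction, which held for 4 of 22423 genes tested (0.0178%). Without the filter, 22 members entered among 36568 genes, of which 1.19% were called, and no member was. Of these 22, 15 were lower and 7 higher in *Atm*-KO mice, with a median log2 fold change of -0.37, while 48.3% of all 36568 genes were lower and their median was 0.016. Among the 15 members with counts in both genotypes, 9 were lower and the median was -0.26. One member had an unadjusted p under 0.05, *Hoxa4* (edgeR adjusted p = 0.335), whose 10 counts all came from mouse 2M. The share of all genes with such a p and lower in *Atm*-KO was 5.93%, so 1 of 22 was near the background. DESeq2 gave an unadjusted p under 0.05 for 0 of the 22 members, against 13.8% of all genes in either direction, with 16 members lower and a median of -0.39. The genotypes did not overlap for 0 of the 22 members, against 7.93% of all genes with a count. All of these members but *Hoxd1* and *Hoxd13* had a 0 in both genotypes, which makes overlap certain. This 0 of 22 was therefore largely set by the sparse counts. No genotype difference was detected. Values this near to 0 cannot show whether the genotypes are alike.

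The partners of the Hox proteins were present at levels far above them. The TALE homeodomain cofactors of the Pbx, Meis and Pknox families, which bind DNA together with Hox proteins, all passed the filter (9 of 9). Together they held 433 to 464 CPM in single mice. None was called, 0 of 9 had an unadjusted p under 0.05 in either direction (background 8.48% lower and 11.7% higher), and their median log2 fold change was -0.034, beside -0.018 over all genes tested. Genotypes did not overlap for *Pbx2* (34.8 to 35.5 CPM in *Atm*-WT, against 32.6 to 34.5 in *Atm*-KO mice, log2 fold change -0.09, edgeR adjusted p = 0.425), where 11.6% of all genes that passed the filter had no overlap. *Meis2* was at 19.1, 23.7, 20.2 and 35.0 CPM in *Atm*-WT mice, at 21.2, 33.3 and 30.2 in 1M, 7F and 11M, and at 1.21 CPM in 12M, which stood alone.

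Regulators that act upstream of Hox genes were measured as a list of 24, of which 16 passed the filter and 3 had an unadjusted p under 0.05, all lower in *Atm*-KO mice (8.48% of all genes tested were lower at this p). The median log2 fold change of the list was -0.14, and 0 were called. *Rxra*, a partner of the retinoic acid receptors, was at 34.9 to 40.2 CPM in *Atm*-WT, against 18.7 to 31.6 in *Atm*-KO mice (log2 fold change -0.46, edgeR adjusted p = 0.122), and the genotypes did not overlap, as for 11.6% of all genes that passed the filter. *Cyp26b1*, the enzyme that degrades retinoic acid, was at 25.0 to 36.3 CPM, and *Egr2*, the driver of group 2 genes in rhombomeres 3 and 5, at 0.0699 to 0.269 CPM. *Cdx1*, *Cdx2* and *Cdx4*, which switch on trunk Hox genes, were at 0 in every mouse.

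The Polycomb and Trithorax genes that hold Hox clusters silent or active all passed the filter (20 of 20), with a median log2 fold change of -0.041, 0 called and 2 lower at an unadjusted p under 0.05, near the 8.48% of all genes tested. Both had no overlap between genotypes, as had 11.6% of all genes that passed the filter. *Ezh2*, the methyltransferase of the Polycomb complex, was at 29.0 to 31.2 CPM in *Atm*-WT, against 24.6 to 27.3 in *Atm*-KO mice (-0.22, edgeR adjusted p = 0.125). *Rbbp7*, a histone-binding subunit, was at 113 to 120 CPM in *Atm*-WT, against 101 to 110 in *Atm*-KO mice (-0.13, adjusted p = 0.237). Other homeobox genes numbered 11, of which 5 passed the filter with 0 at an unadjusted p under 0.05 (8.48% of all genes tested were lower and 11.7% higher). *En2* was at 104 to 125 CPM in every mouse, whereas *En1* was at 2.96 to 5.71 CPM in 7 mice and at 0.533 in 12M.

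Markers of tissue next to the cerebellum varied between the same mice, and their part in the Hox levels was not tested. The list of brainstem neurons (25 genes, 18 past the filter, none at 0 in every library) summed to 156 to 200 CPM in *Atm*-WT, against 79.7 to 217 in *Atm*-KO mice. At an unadjusted p under 0.05, 4 of the 18 were higher in *Atm*-KO (*Tph2*, *Slc6a4*, *Slc18a3* and *Slc5a7*), where 11.7% of all genes tested were, and 0 were called. Exact permutation over the mice gave p = 0.171 to 0.257 for these 4 genes. Of the 18, 0 were without overlap between genotypes, against 11.6% of all genes that passed the filter. Most of the summed CPM of the list was *Slc17a6* and *Slc6a5*, transporters of glutamate and glycine that neurons of the cerebellum itself also use.

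Mouse 7F, the second highest for the Hox sum, was the highest for a pair of noradrenergic genes, named after their values were seen. *Slc6a2*, the noradrenaline transporter, was at 0.791, 1.80, 0.0699 and 2.28 CPM in *Atm*-WT and 0.636, 11.3, 4.05 and 0.237 in *Atm*-KO mice, and *Dbh*, the enzyme that makes noradrenaline, reached 4.55 CPM in 7F. *Th*, an enzyme of the same pathway, did not follow them and stood at 6.86 CPM in 2M and 6.85 in 7F, with 3.76 to 6.22 in the other mice. Mouse 11M was the highest for the serotonergic genes *Tph2* (4.32 CPM) and *Slc6a4* (3.53 CPM) and the choline transporter *Slc5a7* (7.69 CPM). Mouse 2M, the highest for the Hox sum, stood at 0.791 CPM for *Slc6a2*, 0.475 for *Dbh* and 1.17 for *Slc5a7*. In the same list it was the highest mouse for *Th*, *Lbx1* (5.86 CPM) and *Slc6a5* (64.8 CPM). Of the serotonergic genes, it was the highest for the sparse *Fev* (0.211 CPM, below the filter), the lowest for *Tph2* (0.462 CPM) and at 0 for *Slc6a4*.

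Mouse 2M was also the highest for the choroid plexus, the epithelium that makes cerebrospinal fluid in the ventricle beneath the cerebellum. The list of 14 choroid plexus genes summed to 1771, 1635, 892 and 1083 CPM in *Atm*-WT and 491, 1086, 883 and 1371 in *Atm*-KO mice. Its leading gene *Ttr*, the thyroxine carrier, was at 1340, 1204, 651 and 844 CPM in *Atm*-WT and 352, 799, 655 and 1046 in *Atm*-KO mice. Mouse 1M, the lowest for the Hox sum in CPM, was also the lowest here, but 12M, also among the lowest 3 for the Hox sum, was the third highest. All 14 genes had a log2 fold change below 0, with a median of -0.57, of which 3 had an unadjusted p under 0.05 (8.48% of all genes tested were lower at this p) and 0 were called.

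Mouse 12M was far below the other 7 mice for some genes of the brainstem list and not for others. *Slc17a6* was at 74.2, 75.9, 73.6 and 116 CPM in *Atm*-WT and 76.3, 80.0, 107 and 4.32 in *Atm*-KO mice. *Gata3* and *Pou4f1*, transcription factors of brainstem and midbrain neurons, were at 0.0592 and 0.0296 CPM in 12M, with 1.39 to 3.68 and 0.559 to 4.13 CPM in the others. In the same list *Tlx3* was highest in 12M (5.50 CPM, with 2.58 to 4.70 in the others), and *Lbx1* (4.72 CPM) and *Tph2* (1.21 CPM) lay within the range of the other mice. The low mouse was the same for *Meis2*, *En1*, *Evx1* and *Evx2*. The Hox genes of this mouse were at 0 for *Hoxa2*, *Hoxa3*, *Hoxb2* and *Hoxd13*, but it kept 8 counts of *Hoxb3*, 4 of *Hoxb4* and 4 of *Hoxd1*. The 3 highest mice for *Hoxd1* (32M, 11M and 7F) were also the highest for *Slc17a6* and *Meis2*.

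**Figure D4:**
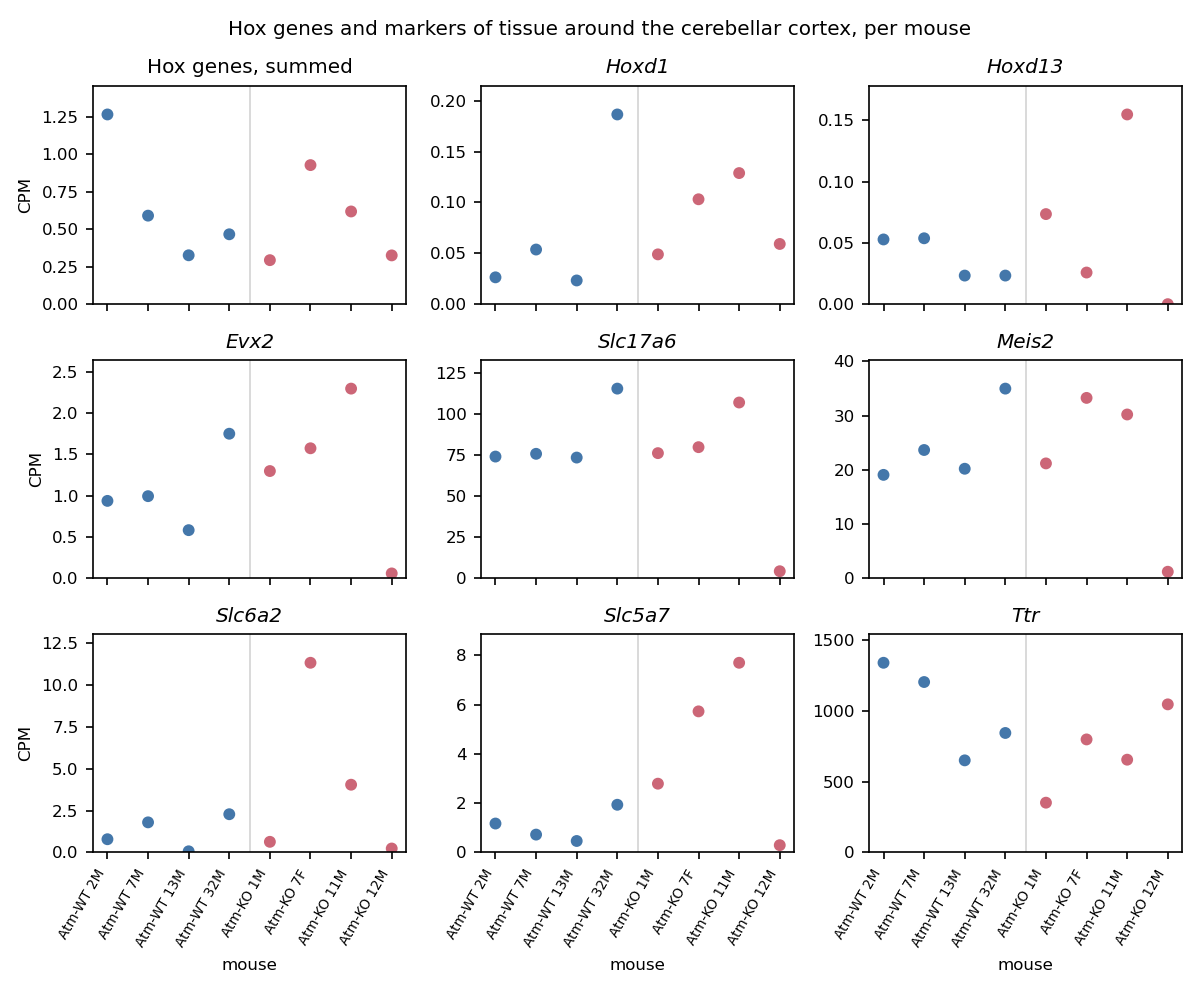
Levels in CPM (vertical axes, each from 0 with its own scale) of the summed Hox genes, *Hoxd1*, *Hoxd13*, *Evx2*, *Slc17a6*, *Meis2*, *Slc6a2*, *Slc5a7* and *Ttr* in each mouse (points; blue *Atm*-WT, red *Atm*-KO). Mouse 2M is the highest for the Hox sum and *Ttr*, 32M for *Hoxd1*, *Slc17a6* and *Meis2*, 7F for *Slc6a2*, 11M for *Slc5a7*, and 12M is near 0 for *Evx2*, *Slc17a6* and *Meis2*.

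Other tissues were read the same way. Meningeal fibroblast genes (12 of 12 past the filter) summed to 131 to 169 CPM in *Atm*-WT, against 112 to 144 in *Atm*-KO mice, with *Dcn*, a matrix proteoglycan, lower at an unadjusted p under 0.05 and without overlap (25.6 to 29.4 against 16.0 to 22.5 CPM, log2 fold change -0.47, edgeR adjusted p = 0.0931). Beside the background shares of 8.48% lower and 11.7% higher at an unadjusted p under 0.05 and 11.6% without overlap, list counts were as follows. Of 10 genes each, mural, endothelial and oligodendrocyte lists had 4, 3 and 4 genes lower and 0 higher at an unadjusted p under 0.05, with no overlap for *Acta2*, *Tagln*, *Pecam1*, *Mobp* and *Cnp*. Cerebellar genes had 5 of 16 lower and 0 higher, with no overlap for *Pvalb* and *Gdf10*. The list of skin, muscle and blood genes (8, 3 past the filter) had 0 in either direction. None of these lists held a called gene. Oligodendrocyte genes were lowest in 12M (2107 CPM, with 3348 to 4561 in the other mice).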

How the data were processed

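Bulk RNA-seq of cerebellum was made from 8 mice, 4 *Atm*-WT and 4 *Atm*-KO. Per the study's methods the authors checked reads with FastQC (0.11.9), aligned them with STAR to GRCm39 and counted them with featureCounts, and they deposited raw counts per gene. Strand and pair settings of the counting are not given in the sources used here. Nothing says that mice were split into technical repeats, so p-values measure the spread between mice.

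Counts were tested with edgeR 4.0.16 in R 4.3.3 (filterByExpr, TMM, glmQLFit and glmQLFTest, Benjamini-Hochberg adjustment over all genes tested, no covariate). DESeq2 1.42.0, limma 3.58.1 and sva 3.50.0 served as alternatives, and the edgeR script was tested on simulated data. CPM used TMM factors, and log2 CPM a prior count of 2. Exact intervals and permutation tests used SciPy 1.17.1. Gene models were those of GENCODE vM39 (56017 rows matched), from which promoter windows were read. The named genes were all 39 members. Of the lists, genes with a mean of at least 1 CPM whose genotypes did not overlap were named, and those that bear on the Hox values by place or level. The members and lists were chosen with earlier results of these data known. A few genes are not reported here singly and stay in the counts and sums of their lists.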

Additional observations from a re-analysis of the deposited data

Results flagged for a closer look

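Within the groups of 4 mice, 78 sets of values were screened for a mouse far from the other 3 by Dixon's criterion, and 6 passed, where chance would give about 3.9. For *Hoxd1*, mouse 32M stood at 16 counts among *Atm*-WT mice at 2 to 4. In the same mouse *Slc17a6* stood at 116 CPM among 73.6 to 75.9. In mouse 11M, *Tph2* stood at 4.32 CPM among *Atm*-KO mice at 1.02 to 1.21, and *Slc6a4* at 3.53 among 0.266 to 0.387 CPM. The summed meningeal fibroblast genes stood at 169 CPM in 7M among *Atm*-WT mice at 131 to 135. The summed mural genes stood at 132 CPM in 12M among *Atm*-KO mice at 178 to 182.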

How the results depend on the processing

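Over all genes, 4 were called. No filter on low counts gave 435, at least 10 counts in every library 2, DESeq2 994, limma voom 3 and 1 surrogate variable 6. Leaving out 1 mouse gave 1 to 27 (1 without 2M, 1M or 11M, 2 without 7M, 9 without 32M and 27 without 13M). The cause of these shifts was not tested. No Hox gene was called under any of these settings, but only the fit without the filter and DESeq2 held Hox genes. The other settings could call none. At an unadjusted p under 0.05 the number of Hox genes was 0, or 1 without the filter, and the number lower in *Atm*-KO mice was 0 (none tested), or 15 without the filter and 16 with DESeq2. Leaving out 1 mouse moved the log2 difference across 0 for the following genes, none of which had passed the test, with ranges of -1.02 to 0.11 for *Hoxa3*, -0.37 to 0.64 for *Hoxb2*, -0.46 to 0.40 for *Hoxb3*, -0.65 to 0.14 for *Hoxb5* and -0.29 to 0.65 for *Hoxd13*. For *Hoxd1* it stayed above 0, at 0.15 to 0.85. Settings that keep the filter gave no value for single Hox genes or for their median.

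The summed Hox difference was -0.105 CPM by library size alone and -0.133 without *Hoxd1*, and between -0.250 and 0.0804 with 1 mouse left out. Members with a count were 20 to 22 with 1 mouse left out and 16 at a minimum of 3 counts, and groups 1 to 8 held 89.2 to 93.3% of the counts. The settings without *Hoxd1* and with a minimum of 3 counts were chosen after seeing the data. No paired analysis was possible because the mouse numbers of the genotypes share only the number 7. Depth limits every Hox value: at 1 to 16 counts a member can change severalfold within counting error.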
